A study of Rattus norvegicus with 9 samples.

Results

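The genes described here are 6 that handle active vitamin D and phosphate in the kidney, out of 17862 features in the deposited values. They are Cyp24a1 (ENSMUSG00000038567), Cyp27b1 (ENSMUSG00000006724), Vdr (ENSMUSG00000022479), Kl (ENSMUSG00000058488), Slc34a1 (ENSMUSG00000021490) and Slc34a3 (ENSMUSG00000006469). All 6 were listed, and all 6 passed the limit for testing, a mean of at least 1 FPKM (reads scaled to the length of the feature and to the library total) over the 9 samples. The set was put together for its roles and was chosen from results of these data that were already known, among them the higher Cyp24a1 level in hypertensive than in normal kidney. Levels against normal kidney are therefore a description of the set. No p-value is given for Cyp24a1 against normal kidney, and the adjusted p-values of the other 5 genes only place them within the whole table.

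Vitamin D from skin and diet is hydroxylated in the liver and then in the kidney, where the product of Cyp27b1 makes the active hormone calcitriol and the product of Cyp24a1 breaks it down. Calcitriol binds the receptor encoded by Vdr, which acts on target genes together with a retinoid X receptor, and Cyp24a1 is a classical target of it. Klotho, encoded by Kl, is the co-receptor for the bone hormone FGF23, which lowers phosphate uptake and calcitriol synthesis. Slc34a1 and Slc34a3 encode the sodium-phosphate cotransporters NaPi-IIa and NaPi-IIc, which recover filtered phosphate in the proximal tubule.

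RNA of whole renal tissue, freed of ribosomal RNA, was sequenced in 9 samples of 3 groups of 3, all given as 6 weeks of age. WT samples are labelled normal, Model samples hypertension, and QDG samples hypertension with QDG, the Qingda granule, a Chinese herbal preparation. Neither the strain, the origin of the hypertension, a vehicle for Model, nor the dose and duration of the granule is stated in the labels. They do not say that the 3 samples of a group are 3 animals, and p-values therefore describe the scatter of the samples, part of which may be technical. The labels give the rat as the organism while the identifiers carry the Ensembl mouse prefix, and which species' RNA was sequenced was not settled here. In bulk tissue, fewer cells of a type and less RNA per cell cannot be told apart.

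Whole reads recovered from the steps of the values summed to 26.75 M (WT 2) to 29.42 M (Model 1) per library. The 6 genes held between 60 reads (Cyp24a1 in WT 1) and 126080 reads (Slc34a1 in QDG 3). The library totals implied by the values ran from 26.21 M to 31.40 M and, relative to each other, lay within 0.568% of median-ratio size factors, while they departed from the summed reads by up to 9.34% (WT 3). The deposited values were therefore already on a scale close to that of median-ratio scaling. No library was the odd member of its group throughout: across tested features the library farthest from its group mean was WT 2 for 37.2% and WT 3 for 35.6%, and Model 3 for 38.9% and Model 2 for 34.4%. Lists of further genes of these pathways and of kidney cell types, written in symbols, matched 0 identifiers and were not analysed here, so the tissue label was checked only through the 6 genes.

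Slc34a1 was by far the most abundant of the 6, in place 45 of 17862 features by its mean of 734 FPKM over the 9 samples. Kl followed at 64.7 FPKM, Vdr at 33.8, Cyp24a1 at 13.1, Slc34a3 at 13.0 and Cyp27b1 at 5.03. FPKM is scaled by length, so these levels can be set beside each other. In each group all 3 Slc34a1 values lay above all Kl values, all Kl values above all Vdr values and all Vdr values above those of the other 3 genes. Slc34a3 and Cyp24a1 overlapped in every group, and so did Cyp24a1 and Cyp27b1 in WT. In Model and QDG, Cyp27b1 lay below all the others without overlap. WT 1 held the lowest value of the 9 libraries for each of the 6 genes.

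The stretches of DNA just before the start of 3 of the genes are shown because Cyp27b1 and Slc34a3 both passed the test as higher in Model than in WT, and Slc34a1 is the abundant relative of Slc34a3. They are rat sequences from RefSeq on the GRCr8 assembly, where 5 of the 6 symbols had a match (Cyp27b1, Vdr, Kl, Slc34a1 and Slc34a3), and each covers the 250 bases before the annotated start, 5′ to 3′ on the strand of the gene. Cyp27b1 lies at chr7:64756376-64756625 on the plus strand, Slc34a3 at chr3:28447998-28448247 and Slc34a1 at chr17:9238984-9239233 on the minus strand. Capitals mark matches, on either strand, to AGGTCA or GGTTCA, half-sites of the kind that nuclear receptors such as the vitamin D receptor bind, or to GTTAAT, a half-site of the tubular factor HNF1.
Cyp27b1: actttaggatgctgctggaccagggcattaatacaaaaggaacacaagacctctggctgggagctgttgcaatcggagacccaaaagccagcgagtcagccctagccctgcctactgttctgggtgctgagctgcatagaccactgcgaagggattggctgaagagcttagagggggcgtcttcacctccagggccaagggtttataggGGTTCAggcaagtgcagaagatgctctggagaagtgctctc
Slc34a3: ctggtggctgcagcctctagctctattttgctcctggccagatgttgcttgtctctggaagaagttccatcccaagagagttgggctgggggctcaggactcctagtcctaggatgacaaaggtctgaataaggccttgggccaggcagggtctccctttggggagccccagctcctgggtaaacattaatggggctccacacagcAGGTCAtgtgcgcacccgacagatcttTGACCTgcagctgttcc
Slc34a1: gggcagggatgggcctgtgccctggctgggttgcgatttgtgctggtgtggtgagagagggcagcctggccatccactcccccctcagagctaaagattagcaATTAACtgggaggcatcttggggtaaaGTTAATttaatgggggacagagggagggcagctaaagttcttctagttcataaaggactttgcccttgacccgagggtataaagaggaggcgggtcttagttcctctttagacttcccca

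The Cyp27b1 stretch held 1 GGTTCA, from 41 bases before the start. The Slc34a3 stretch held AGGTCA once on each strand, from 44 and 17 bases before the start. The Slc34a1 stretch held neither, and held GTTAAT once on each strand, from 120 and 147 bases before the start. Among the 33469 stretches of the same length in the table, AGGTCA stood in 14.1%, GGTTCA in 9.77% and GTTAAT in 6.45%, so such matches are common, and a match is no evidence of binding. The Vdr stretch held 1 GGTTCA, on the opposite strand, and the Kl stretch held none of the 3 motifs.

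**Figure D1:**
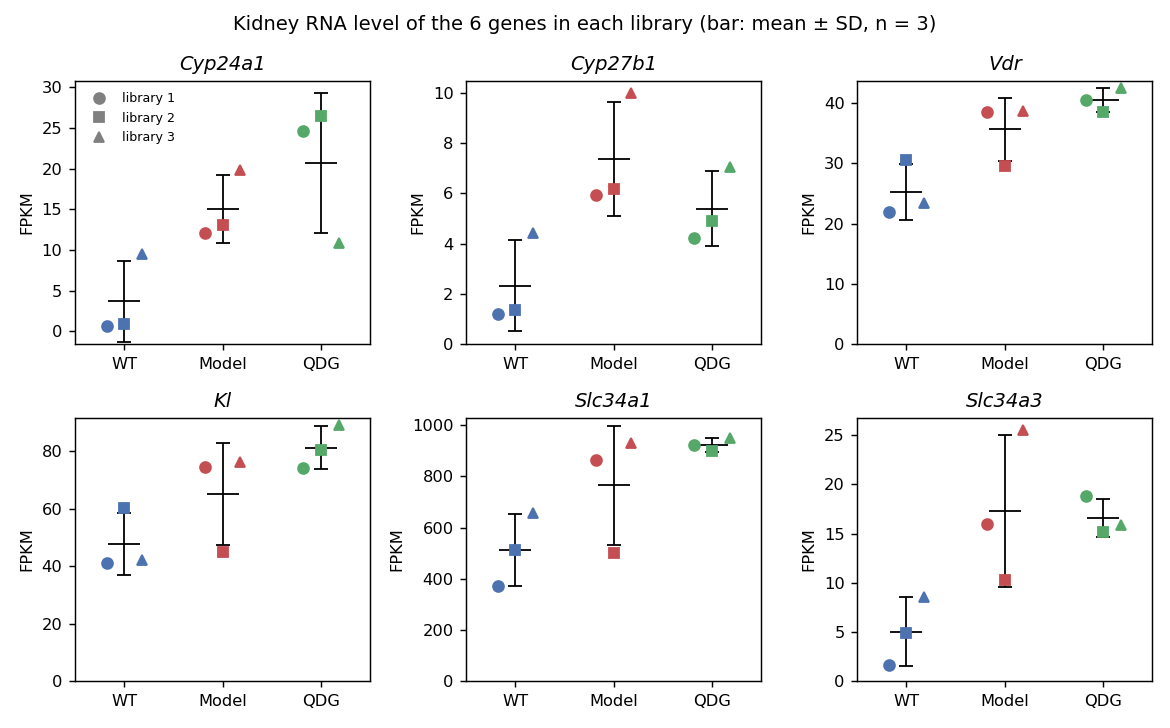
FPKM (vertical axis) of the 6 genes in each of the 3 libraries of WT, Model and QDG. Marker shapes are library numbers, which are not stated to pair the groups, and bars are mean ± SD (n = 3). All Model values of Cyp24a1, Cyp27b1 and Slc34a3 lie above all WT values, and WT 3 stands at 9.45 FPKM for Cyp24a1 against 0.643 and 0.950 in the other WT libraries.

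Cyp24a1, the enzyme that degrades calcitriol, lay under 1 FPKM in 2 of the 3 normal samples and above 10 FPKM in every hypertensive one. It stood at 0.643, 0.950 and 9.45 FPKM in WT 1, 2 and 3. In Model it stood at 12.1, 13.1 and 19.8 FPKM, and in QDG at 24.7, 26.5 and 10.8. The groups did not overlap with WT, but WT 3 and QDG 3 came within 1.38 FPKM of each other. Mean FPKM was 3.68 ± 5.0 for WT, 15.01 ± 4.18 for Model and 20.7 ± 8.58 for QDG (SD, n = 3 each), so that Model and QDG stood at 4.08 and 5.62 times the WT mean. The coefficient of variation was 136% for WT, 27.9% for Model and 41.5% for QDG. Counting error was small beside this spread: the 60 reads of WT 1 give an exact Poisson 95% interval of 0.491 to 0.828 FPKM, and the 1057 of WT 3 one of 8.89 to 10.04, where the intervals cover counting error only. WT 3 held 14.7 times the value of WT 1.

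On the log2(FPKM + 1) scale, which understates changes at low values, Cyp24a1 was 2.28 higher in Model than in WT (SE 0.61) and 2.66 higher in QDG than in WT (SE 0.61). In each of these comparisons it had the second largest increase of 12187 tested features, which is what drew attention to it. Without WT 3 the differences were 3.13 and 3.50, and without WT 1 they were 1.80 and 2.17. QDG and Model differed by 0.37 (95% interval −0.97 to 1.72; limma adjusted p = 0.807), and their values overlapped. QDG 3 stood apart from the other QDG libraries, and the difference from Model was 0.76 without QDG 3, 0.20 without QDG 1, 0.15 without QDG 2, 0.24 without Model 1 and 0.58 without Model 3.

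Cyp27b1, the enzyme that makes calcitriol, was higher in Model than in WT as well. Its values were 1.20, 1.36 and 4.42 FPKM in WT, 5.93, 6.16 and 9.99 in Model, and 4.23, 4.90 and 7.05 in QDG. As for Cyp24a1, WT 3 was the highest WT library and Model 3 the highest Model library, while QDG 3 was the highest QDG library for Cyp27b1 and the lowest for Cyp24a1. Mean FPKM was 2.33 ± 1.81 for WT, 7.36 ± 2.28 for Model and 5.39 ± 1.47 for QDG (SD, n = 3 each). Cyp27b1 rose in Model by a log2 of 1.43 (SE 0.33, limma adjusted p = 0.0313), with no overlap between the groups. QDG was 1.05 above WT (SE 0.33, limma adjusted p = 0.111), which did not pass, and QDG 1 at 4.23 FPKM lay below WT 3 at 4.42. Against Model, QDG stood 0.38 lower (log2 difference −0.38, 95% interval −1.10 to 0.35; limma adjusted p = 0.617), the only member with a lower mean on this scale in QDG than in Model.

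The ratio of Cyp24a1 to Cyp27b1 within a library sets the degrading against the synthesizing enzyme and does not depend on library scaling. It was 0.536, 0.700 and 2.14 in WT, 2.04, 2.13 and 1.98 in Model, and 5.84, 5.41 and 1.54 in QDG. The 3 Model libraries lay close together, with a mean of 2.05 ± 0.0749 (SD, n = 3), although the level of each enzyme varied 1.64-fold and 1.69-fold among them. WT and QDG were each split, with 2 libraries alike and library 3 apart. WT 3 lay just above all Model values and QDG 3 below them, so that each pair of groups overlapped. The log2 ratio was 1.14 higher in Model than in WT and 0.83 higher in QDG than in Model, given as a description because Cyp24a1 was known to differ. With 1 library left out, the first ran from 0.75 (without WT 1) to 1.74 (without WT 3). The second ran from 0.49 (without QDG 1) to 1.46 (without QDG 3), and was 0.55 without QDG 2.

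**Figure D2:**
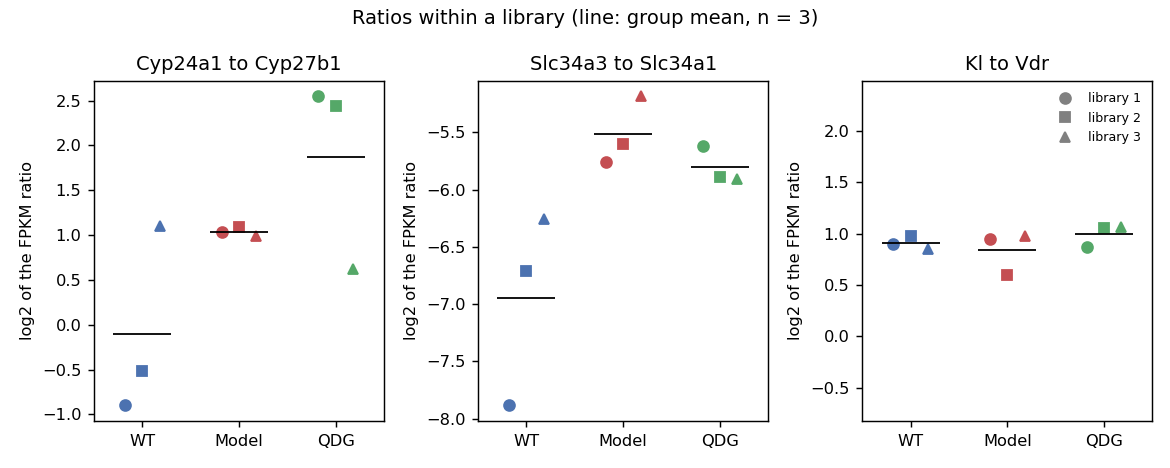
Log2 of the FPKM ratio of Cyp24a1 to Cyp27b1, Slc34a3 to Slc34a1 and Kl to Vdr (vertical axes) in each library of WT, Model and QDG; lines are group means (n = 3). The Model libraries share a Cyp24a1 to Cyp27b1 ratio near 2.05, and all Slc34a3 to Slc34a1 ratios of Model and QDG lie above those of WT.

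Vdr, the calcitriol receptor, varied less than either enzyme. It stood at 21.9, 30.5 and 23.4 FPKM in WT, 38.6, 29.6 and 38.7 in Model, and 40.6, 38.6 and 42.6 in QDG. Model 2 lay inside the WT range, and Model 3 lay just above QDG 2. In QDG, Vdr rose over WT by a log2 of 0.67 (SE 0.15, limma adjusted p = 0.0443), from 25.3 ± 4.61 to 40.6 ± 1.99 FPKM (SD, n = 3 each), with no overlap. The difference of Model from WT, 0.48 (SE 0.15), did not pass (limma adjusted p = 0.0704). QDG and Model differed by 0.19 (95% interval −0.14 to 0.52; limma adjusted p = 0.574).

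Kl, the FGF23 co-receptor, had a library pattern like that of Vdr in WT and Model, and only partly so in QDG. Its values were 41.0, 60.3 and 42.3 FPKM in WT, 74.4, 44.8 and 76.3 in Model, and 74.2, 80.4 and 89.1 in QDG. WT 2 was the highest WT library and Model 2 the lowest Model library for both genes. QDG 3 was the highest QDG library for both, while Kl was lowest in QDG 1 and Vdr in QDG 2. The ratio of Kl to Vdr, looked at after the values were seen, ran from 1.51 (Model 2) to 2.09 (QDG 3). Mean FPKM of Kl was 47.8 ± 10.8 for WT, 65.2 ± 17.6 for Model and 81.3 ± 7.49 for QDG (SD, n = 3 each). No comparison of Kl passed the threshold. Its log2 difference was 0.42 for Model against WT (95% interval −0.06 to 0.90; limma adjusted p = 0.228), 0.77 for QDG against WT (0.29 to 1.25; limma adjusted p = 0.0823) and 0.35 for QDG against Model (−0.13 to 0.83; limma adjusted p = 0.486). All QDG values of Kl lay above all WT values.

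Slc34a1, the main phosphate transporter of the proximal tubule, was even among the QDG libraries and uneven in the other groups. It stood at 371, 512 and 655 FPKM in WT, 865, 500 and 932 in Model, and 922, 899 and 952 in QDG. Model 2 again lay inside the WT range, and all QDG values lay above all WT values. The coefficient of variation was 27.7% for WT, 30.4% for Model and 2.89% for QDG. The log2 difference was 0.56 for Model against WT (SE 0.26, limma adjusted p = 0.187) and 0.89 for QDG against WT (SE 0.26, limma adjusted p = 0.0958), and neither passed. QDG differed from Model by 0.32 (95% interval −0.26 to 0.90; limma adjusted p = 0.593).

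Slc34a3, the less abundant phosphate transporter, was higher in Model than in WT. Its values were 1.57, 4.90 and 8.55 FPKM in WT, 16.0, 10.3 and 25.6 in Model, and 18.8, 15.1 and 15.8 in QDG. Both hypertensive groups lay wholly above WT, and the 3 QDG values fell within the Model range. Mean FPKM was 5.01 ± 3.49 for WT, 17.3 ± 7.74 for Model and 16.6 ± 1.93 for QDG (SD, n = 3 each). Slc34a3 rose in Model by a log2 of 1.71 (SE 0.42, limma adjusted p = 0.0394). A difference of about the same size in QDG, 1.74 (SE 0.42), missed the threshold (limma adjusted p = 0.0592). QDG and Model differed by 0.03 (95% interval −0.92 to 0.97; limma adjusted p = 0.982).

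Slc34a3 was also higher relative to Slc34a1 in the hypertensive samples than in the WT samples. In FPKM it stood at 0.423%, 0.957% and 1.3% of that of Slc34a1 in WT, 1.85%, 2.05% and 2.75% in Model, and 2.04%, 1.68% and 1.66% in QDG. No WT value reached any Model or QDG value. The log2 ratio was 1.43 higher in Model than in WT and 1.15 higher in QDG than in WT (2-sided exact permutation test, p = 0.1 each, adjusted over 3 comparisons p = 0.15). With 3 against 3 samples 0.1 is the smallest p this test can give, so it cannot pass. QDG against Model differed by −0.29 on this scale (exact permutation p = 0.2, adjusted p = 0.2), with overlap. Model 2, low for Slc34a1 and Slc34a3 alike, lay between the other Model libraries in the ratio.

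**Figure D3:**
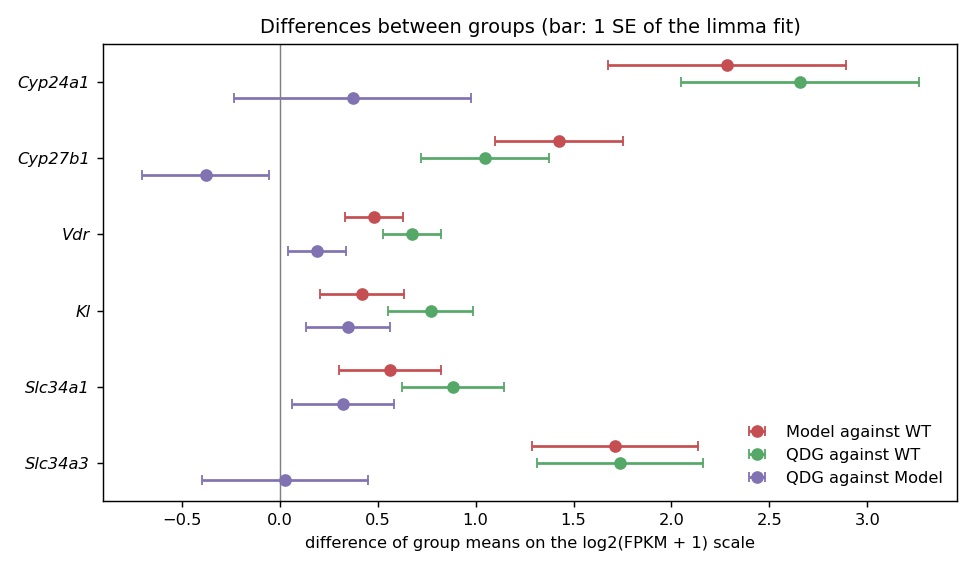
Difference of group means on the log2(FPKM + 1) scale (horizontal axis) for the 6 genes, with 1 SE of the limma fit as bars (n = 3 a group). Differences from WT are positive for all 6 genes in both hypertensive groups, from 0.42 (Kl, Model) to 2.66 (Cyp24a1, QDG), while QDG against Model runs from −0.38 to 0.37.

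Model against WT asks what differs in the hypertensive kidney. Of the 5 genes tested here, all but Cyp24a1, 2 were called higher and 0 lower (limma, adjusted p under 0.05), Cyp27b1 and Slc34a3. Among all tested features 6.01% were called higher in this comparison. Since the set was chosen with this comparison in view, nothing is read from the count. The same holds for the median, signs and overlap that follow, which include Cyp24a1. The median log2 difference of the 6 was 1.00, against 0.02 over all tested features, and all 6 differences were positive, against 53.0% of features. All 3 Model values lay above all 3 WT values for 3 of the 6 and for 17.3% of features. The calls moved with single libraries. Without WT 1, WT 2, Model 1, Model 3 or QDG 2, 0 of the 5 passed, without QDG 1 or QDG 3, 1 passed (Cyp27b1), and without Model 2, all 5 passed. Over all alternatives the adjusted p of Cyp27b1 ran from 0.00771 to 0.105 and that of Slc34a3 from 0.0154 to 0.126.

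**Figure D4:**
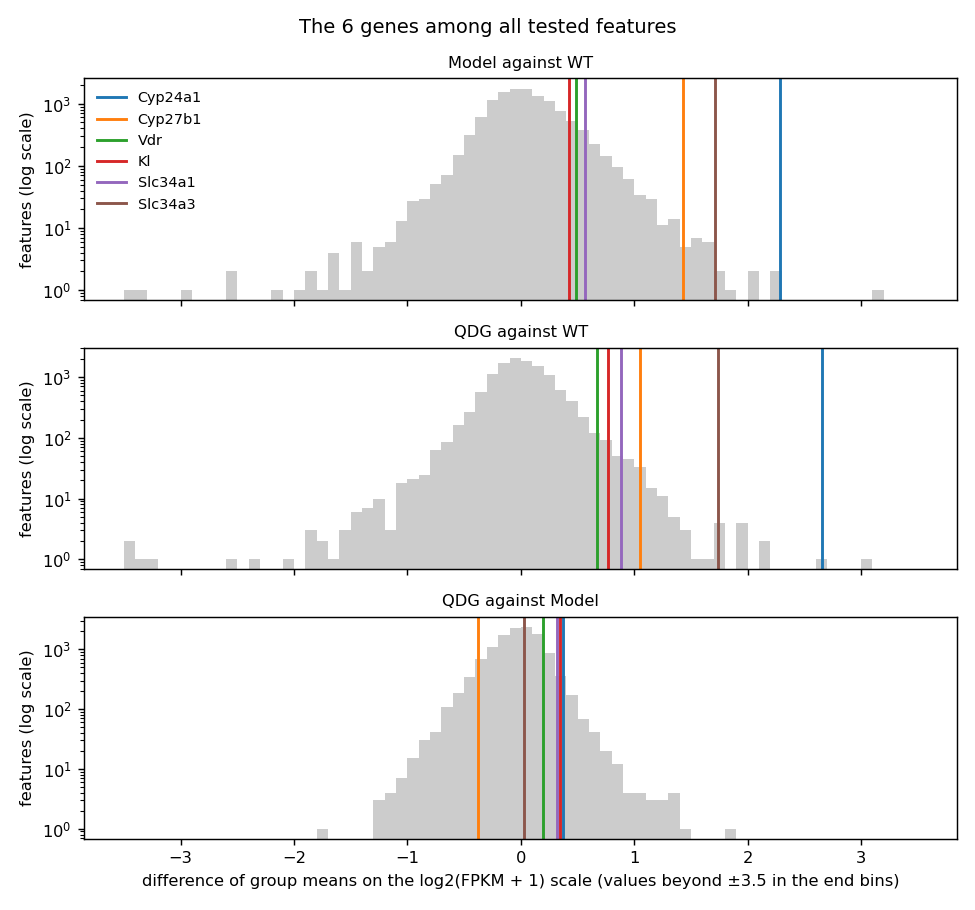
Number of tested features (vertical axis, log scale) by difference of group means on the log2(FPKM + 1) scale (horizontal axis) in the 3 comparisons, with the 6 genes as vertical lines. Against WT the 6 genes lie right of the centre, with Cyp24a1 at 2.28 in Model and 2.66 in QDG, and against Model they lie between −0.38 and 0.37.

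QDG against WT shows how the kidneys under the granule stood beside normal ones, and it shares the WT libraries with the comparison above. Here 1 of the 5 genes tested, again without Cyp24a1, was called higher, Vdr, where 1.63% of all tested features were, and 0 were called lower. The set was chosen with the higher Cyp24a1 level in hypertensive kidney known. Nothing is therefore read from this count, or from the median and overlap that follow, which include Cyp24a1. The median log2 difference of the 6 was 0.97, against 0.00 over all tested features (−0.001). All 3 QDG values lay above all 3 WT values for 5 of the 6, all but Cyp27b1, and for 15.2% of features. The count was 3 without WT 3 (Cyp27b1, Slc34a1 and Slc34a3), 4 without Model 2 (all but Cyp27b1), and 0 without WT 1, Model 1, QDG 1, QDG 2 or QDG 3. The adjusted p of Vdr ran from 0.0253 to 0.156 over the alternatives.

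QDG against Model asks what the granule changed. None of the 6 genes passed (0 of 6), where 0% of all tested features did (limma; 1695 features and 0 of the 6 had an unadjusted p under 0.05), and voom on recovered reads also called 0 of the 6 under either scaling. Unadjusted p did fall under 0.05 in other settings. After quantile normalization it was 0.0275 for Kl and 0.0452 for Vdr, and with the replicate block 0.04165 for Cyp27b1 (limma). None of these passed after adjustment (limma adjusted p = 0.392, 0.419 and 0.410). Of the 6, 5 had a positive difference, against 46.5% of features, and the median was 0.26, against −0.02 over all tested features. Among the 5, Slc34a3 stood at only 0.03, and its mean FPKM was lower in QDG (16.6) than in Model (17.3). The 2 groups overlapped for all 6 genes, where 26.7% of features had no overlap in either direction. The 95% intervals, before adjustment, were widest for Cyp24a1 (−0.97 to 1.72) and narrowest for Vdr (−0.14 to 0.52). On the log2(FPKM + 1) scale of the main fit, differences of 2-fold or more lay within the interval for Cyp24a1 and Cyp27b1 (−1.10 to 0.35). They lay outside it for the remaining genes, but this scale understates changes at low values and other settings differed. The interval of Slc34a3 was −1.10 to 1.17 with a pseudocount of 0.1. That of Slc34a1 was −0.06 to 1.09 after quantile normalization, and that of Kl reached 1.005 without Model 3. A 2-fold change is therefore not excluded for these genes. The intervals of the main fit rest on a spread estimated with the WT libraries as well. With only the 2 groups fitted, they were −0.40 to 1.15 for Cyp24a1 and −0.89 to 0.13 for Cyp27b1.

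**Figure D5:**
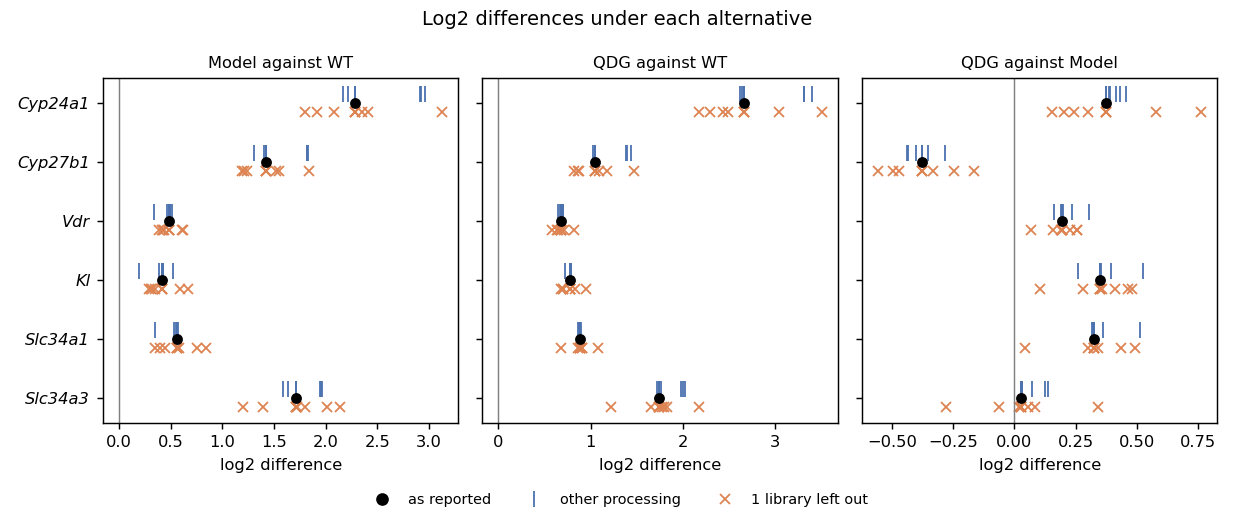
Log2 difference (horizontal axis) of each gene in the 3 comparisons as reported (black), under other processing (blue) and with 1 library left out (orange). All differences from WT stay positive, and Slc34a3 in QDG against Model runs from −0.28 to 0.34.

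Beyond the 6, the log2(FPKM + 1) of 12181 tested features was compared with that of Cyp24a1 over the 9 libraries. The closest were ENSMUSG00000039953 (Pearson r = 0.99) and ENSMUSG00000047238 (r = 0.985), picked as the highest and given with no test. The files pair neither with a name. ENSMUSG00000039953 moved within a narrow band, from 22.7 FPKM in WT 1 to 28.3 in QDG 2, and ENSMUSG00000047238 from 2.84 FPKM in WT 1 to 5.70 in QDG 1. Both had their highest WT value in WT 3, at 26.0 and 4.70 FPKM, and their lowest QDG value in QDG 3, at 26.3 and 4.93 FPKM, as Cyp24a1 did. Since both were picked for following Cyp24a1 over these same libraries, this largely follows from the pick.

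In the rat annotation Cyp24a1, Vdr and Slc34a3 each overlap 1 gene of a long noncoding RNA. Neither the annotation used for counting nor any use of strand is stated. Whether the reads counted for these genes include reads of their overlapping partners was not settled here.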

How the data were processed

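Per the labels' protocols, total RNA of frozen renal tissue was extracted with Trizol, ribosomal RNA was depleted, and libraries were made with an NEB Next Ultra RNA kit, so unspliced RNA can contribute. The deposited tables give 1 value for every feature and sample and name no unit. The values deposited by the authors were taken as FPKM, reads normalized by feature length and a library total, from the steps of the values themselves, per the file contents and not per a header. Whole reads were recovered for 17862 of 17862 features (absolute tolerance 0.0001 read or relative 2e-07; 2e-08 for those with many reads), and 99.9% of recovered lengths were whole within 0.05 base. Limma is the tool listed in the submitters' processing notes. The aligner, counter, build and annotation were not given in the sources used here. No feature was at 0 in any library, so features at 0 somewhere were not analysed here.

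The 12187 features whose mean reached 1 FPKM were tested as log2(FPKM + 1) with limma 3.58.1 (R 4.3.3), 1 fit with an intensity trend over all 9 samples, Benjamini-Hochberg adjustment over all tested features, threshold 0.05, checked on simulated data. The members, lists and alternatives were chosen with earlier results of these data known. The rule for naming took the 6 genes, their pathway lists (0 identifiers matched) and the 2 features most correlated with each gene, given for Cyp24a1 only where names are lacking. Gene symbols came with the list of identifiers. The ratio of Slc34a3 to Slc34a1 was compared with exact permutation tests (scipy 1.17.1), and the other ratios are given as a description. Counts of same-group libraries differed by a chi-square per degree of freedom of 11.9 or more. Alternatives were another pseudocount, no or a higher limit on low values, quantile normalization, removal of each library's length trend, voom on recovered reads, fits to 2 groups, a replicate block and leaving out each library.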

Additional observations from a re-analysis of the deposited data

How the results depend on the processing

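Of 324 alternative log2 differences of the 6 genes, 322 kept their direction. The exceptions were Slc34a3 in QDG against Model without Model 2 and without QDG 1, where leaving out 1 library gave −0.28 to 0.34 around 0.03. Which genes passed depended far more on the setting. Leaving Cyp24a1 out of the counts against WT, 2 of the other 5 genes were called for Model against WT, and 1 with no limit on low values, 1 after quantile normalization, 1 once each library's length trend was removed, 0 with only the 2 groups fitted, and 0 to 5 with 1 library left out. For QDG against WT, 1 was called, and 0 with no limit on low values, 2 with a mean of at least 5 FPKM, 2 after quantile normalization, 2 with voom scaled by the median ratio, 2 with only the 2 groups fitted, and 0 to 4 with 1 library left out. The cause was not tested.

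Over all features, Model against WT called 963, and 144 with only the 2 groups fitted and 195 (without Model 3) to 1529 (without WT 3) with 1 library left out. Of the 963, 732 were higher and 231 lower, against 431 and 283 after quantile normalization, 476 and 284 without the length trend, and 500 and 283 with voom scaled by total reads. In QDG against Model 0 features passed, 1 in the fit to 2 groups and 0 to 3 with 1 library left out. For QDG against WT the count was 301, and 515 after quantile normalization, 530 without the length trend, 486 with only the 2 groups fitted and 39 (without QDG 2) to 775 (without WT 3). The replicate numbers of the titles are not stated to pair samples, and same-numbered libraries deviated together with correlations of −0.331 to 0.143. With the number as a replicate block, 533, 0 and 154 features and 2, 0 and 1 of these genes were called, in the order Model against WT, QDG against Model and QDG against WT. The 2 were Cyp27b1 and Slc34a3, and the 1 was Cyp27b1 (adjusted p = 0.0294) in place of Vdr (adjusted p = 0.0957; limma).

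Counting error weighs most on the lowest counts, such as the 60 to 97 reads of Cyp24a1, Cyp27b1 and Slc34a3 in WT 1. Even for Cyp24a1 in WT 1 it was small beside the spread of the WT libraries. The number of samples limits the precision throughout.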

Other observations

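Over the 9 libraries Vdr and Kl were closer to each other in log2(FPKM + 1) than to any other of the 6 genes (Pearson r = 0.957, across all groups and given with no test). Of the other 12181 tested features, 20 were more like Vdr than Kl was, and 12 were more like Kl than Vdr was. Slc34a3 was the member most like Slc34a1 (r = 0.922) and also the member most like Cyp24a1 (r = 0.908) and Cyp27b1 (r = 0.890). These values share libraries, scaling and the differences between the groups, and the parts of these were not told apart.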
